A study of Homo sapiens with 10 samples.

Results

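A set of 8 core and linker histone genes, out of 87 rows of the table with names that begin with HIST1H to HIST4H and 58302 rows in all, was followed across SHIP2 knock-out clones of an oesophageal carcinoma line. They are HIST2H2BE on chromosome 1 and HIST1H2AC, HIST1H2BK, HIST1H2BD, HIST1H2BC, HIST1H1C, HIST1H4H and HIST1H2BJ on chromosome 6. The genes were chosen by their lower CPM (counts-per-million of assigned reads) in the clones than in the control, so that contrast is given for them as a description without a test. The cells were KYSE-410, an established human line of oesophageal squamous cell carcinoma. The 5 groups had 2 RNA libraries each, made from total RNA. The control was a colony that received the Cas9n vector without guide RNA. Clones D4, G4, G10 and H3 received the vector with guides against INPPL1, which encodes the phosphoinositide 5-phosphatase SHIP2, were sorted on a co-transfected GFP reporter and were screened by Western blot. Each clone and the control is 1 expanded colony, and nothing in the labels says that its 2 libraries came from separate cultures, so p-values measure the spread between libraries of a colony, which may be technical.

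Histones package DNA into nucleosomes: H2A, H2B, H3 and H4 form the core particle, and H1 binds the linker DNA. Most genes of the HIST clusters are replication-dependent. Their transcripts are made chiefly in S phase and end in a conserved stem-loop in place of a poly(A) tail, and the stem-loop binding protein SLBP carries them through processing, translation and decay. Several cluster genes, certain H2B genes among them, can also give spliced or polyadenylated transcripts outside S phase, in differentiated or arrested cells. How far the libraries captured transcripts without a poly(A) tail is not established here, so the levels may not cover all histone RNA.

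The stem-loop is shown for the genes in which it was found, because it is the element that marks the replication-dependent transcript. A script searched the GENCODE 29 transcripts (GRCh38), on the transcript strand, for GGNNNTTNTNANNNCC within 150 bases after the stop codon. It matched 5 of the 8 genes, 8 of the 8 other cluster histones that passed the expression filter and 19 of the 23 coding ones below the filter that have annotated bases after the stop. The other 33 coding ones below the filter have none and could not be searched. The match lies at chr1:149886188-149886203 (minus strand) for HIST2H2BE, chr6:26124669-26124684 (plus) for HIST1H2AC and chr6:26285131-26285146 (minus) for HIST1H4H. It lies at chr6:26158587-26158602 (plus) for HIST1H2BD and chr6:26123472-26123487 (minus) for HIST1H2BC. The 4 loop bases are in capitals, and the stems are in lower case.
HIST2H2BE: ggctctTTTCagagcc
HIST1H2AC: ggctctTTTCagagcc
HIST1H4H: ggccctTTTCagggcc
HIST1H2BD: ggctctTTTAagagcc
HIST1H2BC: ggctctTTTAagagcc
HIST2H2BE and HIST1H2AC shared all 16 letters, as did HIST1H2BD and HIST1H2BC, whose loop ends in a different base. HIST1H2BK and HIST1H1C are annotated only as far as the stop codon, so no bases were there to search. HIST1H2BJ held no match in its annotated transcripts. Bases outside annotated exons were not searched, so a stem-loop there would have been missed. An exon beyond the stop codon was annotated for 5 of the 8 genes, against 1 of the 8 other tested cluster histones and 4 of the 56 coding ones below the filter. At least 200 bases after the stop were annotated for 6 of the 8, against 8 of the 8 other tested ones and 12 of the 56 below the filter.

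Promoters are shown for 4 genes that carry the octamer, the letters that POU factors such as POU2F1 (OCT1) recognise in H2B promoters. The windows come from RefSeq (GRCh38.p14), run from 250 bases before to 50 bases after the start site and are written on the strand of the gene, with the octamer in capitals. They lie at chr1:149886633-149886932, chr6:27146809-27147108, chr6:27132746-27133045 and chr6:26123877-26124176, all on the minus strand.
HIST2H2BE: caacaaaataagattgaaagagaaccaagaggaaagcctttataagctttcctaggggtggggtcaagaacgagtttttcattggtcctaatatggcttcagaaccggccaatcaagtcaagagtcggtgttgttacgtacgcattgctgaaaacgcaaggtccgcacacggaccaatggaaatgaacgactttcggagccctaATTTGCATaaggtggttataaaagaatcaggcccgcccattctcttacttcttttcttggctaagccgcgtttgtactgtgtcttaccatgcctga
HIST1H2BK: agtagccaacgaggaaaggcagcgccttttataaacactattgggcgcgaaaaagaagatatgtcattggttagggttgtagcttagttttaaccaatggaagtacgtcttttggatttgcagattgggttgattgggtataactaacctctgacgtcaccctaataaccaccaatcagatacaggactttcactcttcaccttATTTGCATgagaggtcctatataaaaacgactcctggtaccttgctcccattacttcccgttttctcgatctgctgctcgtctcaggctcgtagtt
HIST1H2BJ: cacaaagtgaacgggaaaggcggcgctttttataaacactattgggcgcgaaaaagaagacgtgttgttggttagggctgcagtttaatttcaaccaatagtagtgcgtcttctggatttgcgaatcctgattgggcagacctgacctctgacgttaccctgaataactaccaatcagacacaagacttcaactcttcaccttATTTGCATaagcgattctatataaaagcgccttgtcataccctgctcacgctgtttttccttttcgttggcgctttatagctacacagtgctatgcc
HIST1H2BC: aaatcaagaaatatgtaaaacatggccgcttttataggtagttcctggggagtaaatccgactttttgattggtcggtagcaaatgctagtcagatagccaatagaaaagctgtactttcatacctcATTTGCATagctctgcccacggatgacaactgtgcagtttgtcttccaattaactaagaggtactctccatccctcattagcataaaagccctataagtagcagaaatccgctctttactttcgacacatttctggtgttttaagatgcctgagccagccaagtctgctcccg
The octamer begins 46 bases before the start site of HIST2H2BE and HIST1H2BK and 47 bases before that of HIST1H2BJ. HIST1H2BC and HIST1H2AC are transcribed away from each other from start sites 246 bases apart, share 255 bases of their windows and share this octamer, 123 bases before the start of HIST1H2BC. Searched on both strands, ATTTGCAT occurred in 5 of the 8 windows, or 62.5%, and in 4 of the 5 H2B genes, against 1.8% of the 27305 promoters in the table. It occurred in 42.6% of the 61 matched cluster histone promoters and in 78.1% of the 32 H2A and H2B ones. CCAAT occurred in 87.5% of the 8 windows against 35.7% of all promoters, and TATAAA in 75% against 12%. Among the 61 cluster histone promoters the shares were 83.6% and 65.6%, close to those of the 8. HIST1H2BD, HIST1H1C and HIST1H4H held no octamer in this window. These counts describe letters and not binding.

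Estimated depth was 9653837 to 14253437 reads per library, and 3 reads, the floor used here, corresponded to 0.21 to 0.311 CPM. INPPL1, the targeted gene, stood at 61.0% of the control in D4, 44.8% in G4, 6.6% in G10 and 59.9% in H3. The squamous markers TP63 (83.7 to 222 CPM) and CDH1 (444 to 727 CPM) were present in every library and KRT14 was close to 0 (0.15 to 1.4 CPM). The leukocyte markers PTPRC and CD3E and the fibroblast markers DCN and COL3A1 did not exceed 0.35 CPM. The other markers of non-epithelial cells ranged from 5.85 to 38.6 CPM for CD68, 6.55 to 16.5 for COL1A1, 0.1 to 0.799 for PECAM1, 0.4 to 2.15 for VWF and 0 to 1.2 for CDH5. In bulk RNA counted by gene, fewer cells in S phase, less histone RNA per cell and a changed share of polyadenylated transcripts cannot be told apart.

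HIST2H2BE, which encodes an H2B of the chromosome 1 cluster, was among the genes with the largest differences from the control. Its level was 6.996 and 6.895 CPM in the control libraries. Clone D4 gave 3.748 and 3.148, G4 2.049 and 3.548, G10 2.049 and 1.199, and H3 1.349 and 2.198. All 8 clone libraries lay below both control libraries, and D4 and G10 did not overlap. Over the clones the mean was 34.7% of the control, or −1.27 on a log2(CPM + 1) scale, with an SE of 0.18 (n = 2 libraries per group). The gene rests on 78 and 90 estimated reads in the control and on 16 to 38 in the clones.

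HIST1H2BK, another H2B gene, had the highest level of the 8. It gave 12.892 and 14.989 CPM in the control libraries, 7.497 and 7.694 in D4 and 10.145 and 8.196 in G4. Clone G10 gave 3.897 and 5.446, and H3 5.546 and 4.846. D4 and G4 lay between the control and the other clones and did not overlap with G10 or H3. The clones averaged 47.8% of the control (log2 difference −1.01 ± 0.13, SE), from 33.5% in G10 to 65.8% in G4. Per kilobase of annotated exon its mean over the 10 libraries was 21.3 CPM, above the 10.1 CPM of HIST1H1C and the 3.12 CPM of HIST1H2AC, but the annotation of HIST1H2BK and HIST1H1C stops at the coding sequence. The other 5 had 0.829 to 1.97 CPM per kilobase.

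Among the 8 genes only HIST1H1C, which encodes the linker histone H1.2, had H3 as its highest clone. Only HIST1H2BJ had D4 as its lowest. The level of HIST1H1C was 10.394 and 9.943 CPM in the control libraries, 6.197 and 4.996 in D4 and 5.097 and 4.948 in G4. Clone G10 gave 4.397 and 4.147, and H3 7.045 and 7.594. H3 was the highest clone here, at 72.0% of the control, and its libraries did not overlap with those of any other clone. The mean difference was −0.79 ± 0.12 (SE).

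HIST1H4H, an H4 gene, gave 3.848 and 3.547 CPM in the control libraries, 2.399 and 1.799 in D4 and 1.499 and 1.1 in G4. Clone G10 gave 0.849 and 0.799, and H3 0.799 and 1.299. D4 lay highest of the clones and G10 lowest, at 22.3% of the control. The mean difference was −1.05 ± 0.15 (SE). HIST1H2AC, an H2A gene, gave 10.893 and 8.194 CPM in the control libraries, 5.497 and 4.796 in D4 and 3.698 and 3.948 in G4. Clone G10 gave 2.748 and 3.448, and H3 5.646 and 3.197. Its H3 libraries lay on either side of all other clone libraries but the lower of G10, and the mean difference was −1.06 ± 0.16 (SE). HIST1H2BC, its divergent H2B neighbour, gave 2.10 and 2.60 CPM in the control and 0.5 to 1 CPM in the clones, on 7 to 10 estimated reads. Its clones averaged 32.5% of the control, with a mean difference of −0.93 ± 0.14 (SE).

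HIST1H2BD and HIST1H2BJ, also H2B genes, had the smallest mean differences of the 8 on the log2(CPM + 1) scale. As a share of the control HIST1H1C was lowered least, with the clones at 54.6%, against 48.9% for HIST1H2BD and 45.9% for HIST1H2BJ. HIST1H2BD gave 3.50 and 2.30 CPM in the control and 0.949 to 2.10 in the clones, and HIST1H2BJ gave 1.35 and 2.30 against 0.5 to 1.3. The lower control library of HIST1H2BJ held 15 estimated reads and the highest clone library 13, so the gap between them is within counting error. Their mean differences were −0.69 ± 0.15 and −0.62 ± 0.16 (SE). HIST1H2BD stood at −0.46 without control library 1 and HIST1H2BJ at −0.37 without control library 2. Under limma-voom on estimated reads, which does not add 1 CPM, HIST1H2BJ stood at −1.18, HIST1H2BC at −1.63 and HIST1H4H at −1.58. HIST1H2BD stood at −1.03 there, and HIST1H1C, at −0.9, had the smallest difference of the 8. All 8 genes passed the filter of at least 1 CPM in at least 2 libraries, HIST1H2BC through both control libraries and 1 clone library and HIST1H2BJ through both and 2 clone libraries. In all 8 genes every clone library lay below both control libraries. That holds for 11.5% of the 17664 genes tested, and nothing is read from the count because the contrast chose the genes. Likewise 22.0% of tested genes were lower in the mean of the 4 clones at an adjusted p under 0.05 and 18.2% higher.

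**Figure D1:**
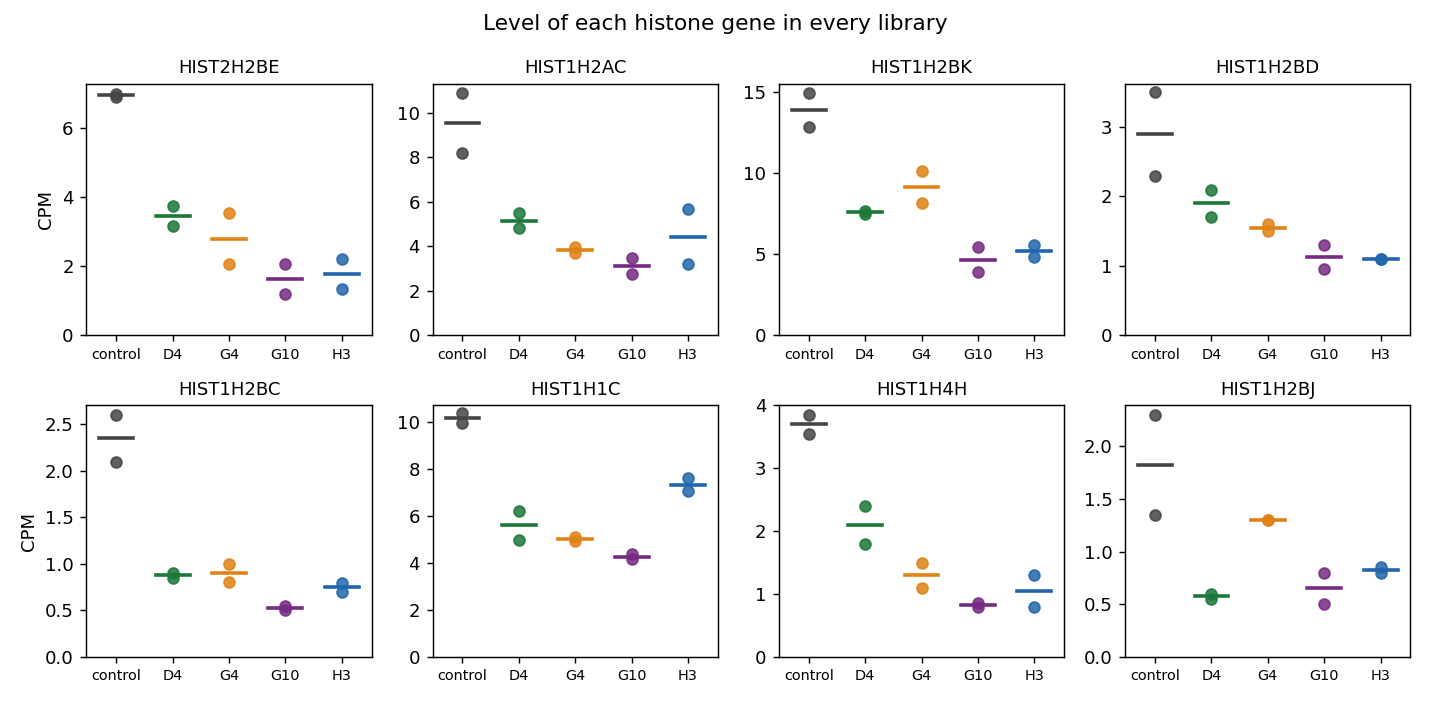
CPM (vertical axis, from 0) of each of the 8 histone genes in the 10 libraries, by group on the horizontal axis. Points are libraries and bars are the means of 2. All 8 clone libraries lie below both control libraries in each panel, most narrowly for HIST1H2BJ.

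Differences among the 4 clones were not the rule by which the genes were chosen, and they were tested. The clone values did enter that choice, so these tests are not fully independent of it. Of the 8 genes, HIST1H2BK, HIST1H1C, HIST1H4H and HIST2H2BE differed among the clones (limma F test over all 17664 genes, Benjamini-Hochberg adjusted p = 0.000744, 0.0061, 0.0134 and 0.017). HIST2H2BE (adjusted p = 0.0825) and HIST1H4H (0.124) no longer passed without D4 library 1, nor did HIST1H1C (0.0545) without H3 library 2. HIST1H2BJ (0.0876), HIST1H2AC (0.0963), HIST1H2BD (0.112) and HIST1H2BC (0.354) did not pass, and HIST1H2AC passed at 0.0421 and 0.0196 without H3 library 1 or 2. Across all genes 67.3% passed this test, and among the 5009 genes in the members' range of mean level, 1.03 to 8.12 CPM, 53.6% did. A share of 4 in 8 is therefore near the background.

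G10 was the lowest clone for 6 of the 8 genes and D4 the highest for 4. The matching shares over all genes are not given here and the 8 genes varied together, so nothing is read from these 2 counts. Between D4 and G10, 4 of the 8 genes differed, against 29.5% of all genes (limma, adjusted p under 0.05). HIST2H2BE was higher in D4 by 0.78 ± 0.22 (log2, SE, adjusted p = 0.0158), HIST1H4H by 0.76 ± 0.19 (0.00736), HIST1H2BK by 0.61 ± 0.16 (0.0096) and HIST1H2AC by 0.59 ± 0.21 (0.0422). Without D4 library 1 the count was 1, and without either G10 library it was 2. The median difference of the 8 was 0.52, against −0.05 for all genes.

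Between D4 and H3, 3 genes differed, against 38.3% of all genes. D4 was higher by 0.70 ± 0.22 for HIST2H2BE (log2, SE, limma adjusted p = 0.0225), 0.60 ± 0.19 for HIST1H4H (0.0213) and 0.47 ± 0.16 for HIST1H2BK (0.0299). The count was 0 without D4 library 1 and without H3 library 1. G4 exceeded G10 for 1 gene, HIST1H2BK, by 0.85 ± 0.16 (adjusted p = 0.000647), against 38.1% of all genes that differed. That count was 2 without G10 library 1 or G4 library 1.

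G4 and H3 differed for 2 genes, against 45.0% of all genes, and in opposite directions. HIST1H2BK was higher in G4 by 0.71 ± 0.16 (log2, SE, limma adjusted p = 0.00205) and HIST1H1C was lower in G4 by 0.47 on the log2 scale, written −0.47 ± 0.15 (0.016). The count was 1 without G4 library 2 or H3 library 2. G10 and H3 differed for HIST1H1C alone among the 8 (−0.66 ± 0.15 for G10 minus H3, adjusted p = 0.00203), against 39.5% of all genes, and for 2 genes without H3 library 2. D4 and G4 differed for HIST1H2BJ alone (−0.55 ± 0.20 for D4 minus G4, adjusted p = 0.0407), also against 39.5%. That call was lost under limma-voom on estimated reads, without the expression filter, and without either D4, G4 or H3 library. Apart from D4 against G10, these counts are at or below the background share.

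**Figure D2:**
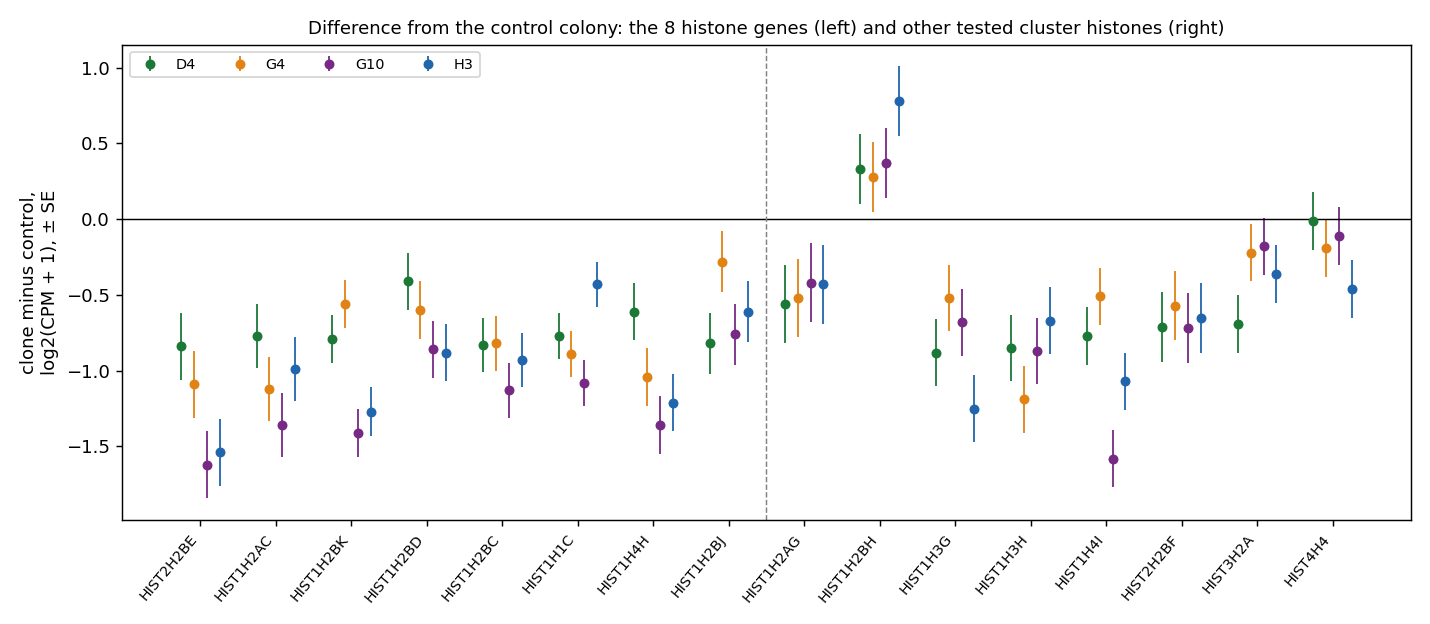
Clone minus control in log2(CPM + 1) (vertical axis, points with SE) for the 8 histone genes, left of the dashed line, and the 8 other tested cluster histones, right of it. HIST1H1C is least lowered in H3 (−0.43), and HIST1H2BH lies above 0 in each clone (0.28 to 0.78).

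The other 79 rows of the clusters were not among the genes chosen, and 8 of them passed the same filter. Of these 8, 4 were lower in the mean of the clones and 0 higher (limma, adjusted p under 0.05), against 22.0% lower among all genes. HIST1H4I, an H4 gene, gave 6.10 and 8.79 CPM in the control and 1.40 to 4.90 in the clones (log2 difference −0.98 ± 0.15, SE, adjusted p = 0.000108). HIST1H3H fell by 0.90 (adjusted p = 0.000731), HIST1H3G by 0.83 (0.00115), both H3 genes, and HIST2H2BF by 0.66 (0.00795). HIST1H3H passed the filter through its 2 control libraries alone, and HIST1H3G and HIST2H2BF through these and 1 clone library, so for these 3 passing the filter and being lower are not independent. Without control library 2 the count fell to 2 of 7.

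HIST1H2BH, an H2B gene, ran the other way without passing. It gave 1.099 CPM in both control libraries and 1 to 2.748 in the clones, 7 of 8 clone libraries being above both controls (0.44 ± 0.18, SE, limma adjusted p = 0.0663). HIST1H2AG (−0.48, adjusted p = 0.079), HIST3H2A (−0.36, 0.0622) and HIST4H4 (−0.19, 0.335) did not pass. Among these 8 other genes HIST1H4I and HIST1H3G also differed among the clones (limma F test, adjusted p = 0.000993 and 0.0365), and HIST1H4I was lowest in G10 at 24.5% of the control.

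Summed levels were read from estimated reads scaled to the library total (RPM), because the deposited CPM rounds a gene with few reads upward. The 8 chosen genes summed to 50.7 and 51.8 RPM in the control and 16.0 to 28.7 in the clones, or 52.7% of the control in D4, 50.1% in G4, 32.4% in G10 and 43.3% in H3. The 8 other tested genes summed to 16.4 and 20.8 in the control and 8.17 to 12.1 in the clones (55.5%, 63.3%, 49.1% and 53.2% in the same order). The 71 rows below the filter summed to 8.57 and 11.9 in the control and 4.85 to 7.21 in the clones (66.3%, 61.1%, 66.1% and 58.8%). In these 3 sums each clone library lay below both control libraries. For the 71 rows the 95% Poisson interval of control library 1 (6.95 to 10.47) overlapped that of every clone library but H3 library 1 (3.68 to 6.27). The gap to the highest clone library, H3 library 2 (5.84 to 8.8), is within counting error. For the 8 other tested genes the intervals of control library 1 (14.15 to 18.99) and D4 library 2 (10.02 to 14.52) overlapped. The 71 rows were kept out of the test by their low level and 20 of the 87 rows were 0 in every library.

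By class, the H3 genes outside the 8 summed to 5.45 and 5.51 RPM in the control and 2.10 to 3.59 in the clones, and the H4 genes to 8.93 and 11.5 against 3.86 to 7.38. For both classes every clone library was below both controls, but the 95% Poisson intervals of the lower control and the highest clone library overlapped. For the H2A and H2B genes outside the 8 this held for 7 of 8 clone libraries. The H1 genes other than HIST1H1C gave 0.18 and 0.99 in the control and 0.2 to 0.78 in the clones, with 0 clone libraries below both controls. At that level no difference was detectable.

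**Figure D3:**
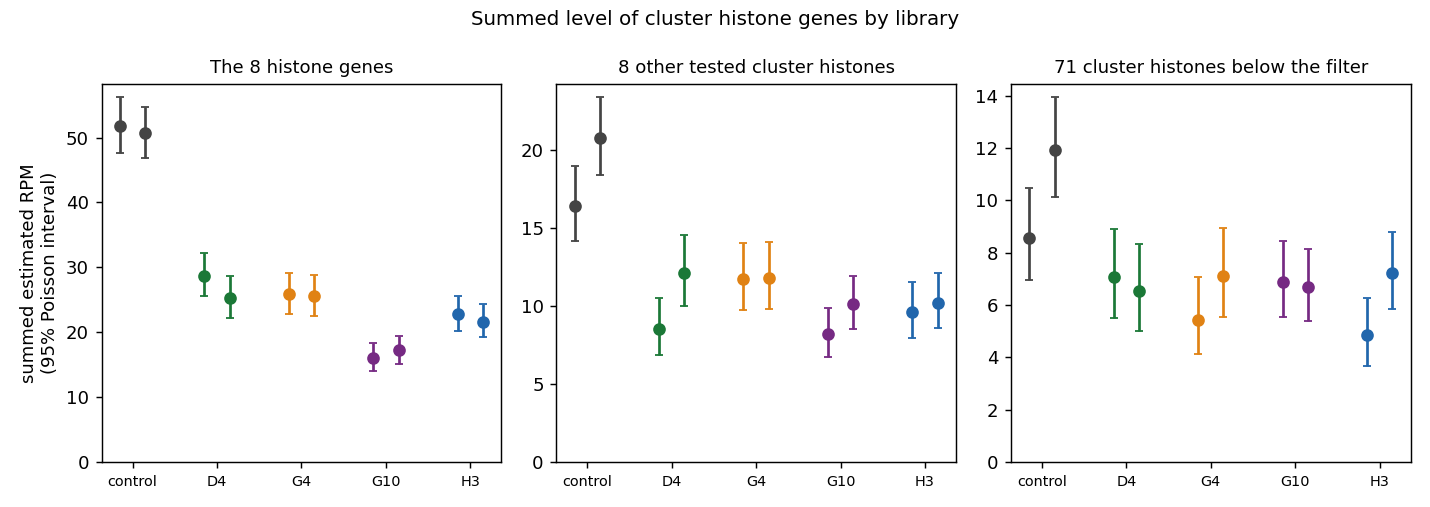
Summed estimated RPM (vertical axis, from 0) in each library for the 8 histone genes, the 8 other tested cluster histones and the 71 below the filter, with 95% exact Poisson intervals that cover counting error only. Control sums lie above clone sums in each panel, and G10 is lowest for the 8 genes.

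Genes listed as replication-independent histones, mostly made from polyadenylated transcripts, did not share one direction. Of 12 listed, 10 were tested, 4 rose and 1 fell for the mean of the clones, and the median difference was 0.10, against −0.02 for all genes. Of all genes tested, 18.2% rose and 22.0% fell. The gene that fell was H1F0, which encodes the linker histone H1.0 of slowly dividing and differentiated cells. H1F0 gave 107 and 105 CPM in the control and 41.8 to 63.3 in the clones, with every clone library below both controls (−0.98 ± 0.06, SE, limma adjusted p = 5.14e-09). It was lowest in H3 (42.1 CPM), the clone in which HIST1H1C was highest of the 4, though still below the control (72.0%). H2AFV, an H2A.Z gene, rose by 0.29 (adjusted p = 0.000488), the centromeric H3 gene CENPA by 0.29 (0.0117) and the H3.3 gene H3F3A by 0.15 (0.045). These means hide clones near the control, with CENPA at −0.06 in D4, and H2AFV at −0.02 and H3F3A at −0.10 in G10. H2AFX (0.19, adjusted p = 0.654), H2AFZ (0.05, 0.448) and H3F3B (−0.03, 0.588) did not pass. Without control library 1, 2 of the 10 were called in place of 5.

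Genes that make, process and degrade replication-dependent histone mRNA split as well. Of 22 tested, 2 rose and 8 fell, beside 18.2% and 22.0% of all genes, with a median of 0.00. ZNF473, a factor of U7-dependent 3′ end processing, gave 77.3 and 74.9 CPM in the control and 48.4 to 60.4 in the clones (−0.50 ± 0.06, SE, limma adjusted p = 1.07e-05). The scaffold SYMPK fell by 0.48 (1.38e-05) and NPAT, the coactivator of histone gene transcription, by 0.38 (0.000801). NCBP1, of the nuclear cap-binding complex, rose by 0.23 (0.00462) and the endonuclease gene CPSF3 by 0.21 (0.0151). SLBP stood at 56.6 CPM in the control, 61.0 in D4, 56.4 in G4, 79.9 in G10 and 54.6 in H3 (0.14, adjusted p = 0.077), so it was highest in the clone in which the 8 genes summed lowest. CASP8AP2, which encodes the processing factor FLASH, did not pass (0.08, 0.489). Without control library 1 or 2 the calls numbered 6 and 5 in place of 10.

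Among 22 histone chaperones and carriers, 9 rose and 5 fell, beside 18.2% and 22.0% of all genes, with a median of 0.14. HJURP, the chaperone of CENPA, rose from 16.7 and 16.2 CPM in the control to 35.9 to 52.1 in the clones (1.31 ± 0.07, SE, limma adjusted p = 1.2e-09). RBBP7 rose by 0.57 (8.87e-07) and the acetyltransferase gene HAT1 by 0.39 (8.05e-05), each with every clone library above both controls. The importin gene IPO4 fell by 0.40 (6.35e-05), with the largest difference in G4 (−1.15) and 0.11 in G10. UBN1, of the H3.3 chaperone complex HIRA, fell by 0.33 (0.000188) and DAXX, another H3.3 chaperone, by 0.20 (0.0107), while G4 was at or above the control for both (0.04 and 0.15). Without control library 2 the calls numbered 9 in place of 14.

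S-phase genes were higher more often than lower. Of 25 tested, 13 rose and 3 fell, beside 18.2% and 22.0% of all genes. The median was 0.11, with clone medians of 0.08 to 0.14. GINS1, of the replicative helicase, rose by 0.40 (limma adjusted p = 6.97e-05), the ribonucleotide reductase gene RRM1 by 0.36 (0.000127) and the helicase gene MCM6 by 0.34 (0.000199). In G4 these stood at −0.20, 0.04 and 0.00 (log2 against the control). CCNE1, the cyclin of S-phase entry, fell by 0.41 (0.0172), with 8 of 8 clone libraries below both controls, MCM2 by 0.29 (0.00104) and GINS2 by 0.23 (0.0465). GINS2 was below the control in D4 (−0.83) and H3 (−0.34) but at 0.18 in G4 and 0.07 in G10. Without control library 1 or 2 the calls numbered 8 and 7 in place of 16. The part of cell cycle distribution in the lower histone levels was not tested.

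Genes that lie among the histone genes were examined to see whether the region as a whole differed. Within the HIST1 cluster and 1 Mb on either side, 40 genes without a histone name were tested. Of these, 5 rose and 5 fell, beside 18.2% and 22.0% of all genes, with a median of −0.02. By clone the neighbours' median was −0.17 in D4, 0.20 in G4, −0.09 in G10 and 0.03 in H3. In the same order the median of the 8 histone genes, which include HIST2H2BE on another chromosome, was −0.78, −0.85, −1.24 and −0.96. Among the neighbours, TOB2P1 fell by 0.72 (limma adjusted p = 0.00269), ZNF322 by 0.45 (0.00536) and ZBED9 by 0.41 (0.0161). ZNF391 rose by 0.49 (0.0157), BTN3A1 by 0.47 (0.00594) and HFE, the haemochromatosis gene, by 0.40 (0.00522). Without control library 1 or 2 the calls numbered 5 and 3 in place of 10.

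The HIST2 genes span the centromere of chromosome 1, so their interval held 89 such neighbours, of which 3 rose and 19 fell, with a median of −0.07. The share that fell was near the 22.0% of all genes tested, of which 18.2% rose. TXNIP, an inhibitor of glucose uptake, fell by 1.23 (limma adjusted p = 1.95e-09), GOLPH3L by 0.56 (0.0153) and HORMAD1 by 0.55 (0.00228). PLEKHO1 rose by 0.35 (0.0152), GNRHR2 by 0.31 (0.0123) and ACP6 by 0.23 (0.00804). Without control library 1 or 2 the calls numbered 6 and 10 in place of 22. Within 1 Mb of HIST2H2BE, an interval chosen after the data were seen, 33 neighbours had a median of −0.09, with 1 higher and 9 lower, beside −1.27 for HIST2H2BE itself.

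**Figure D4:**
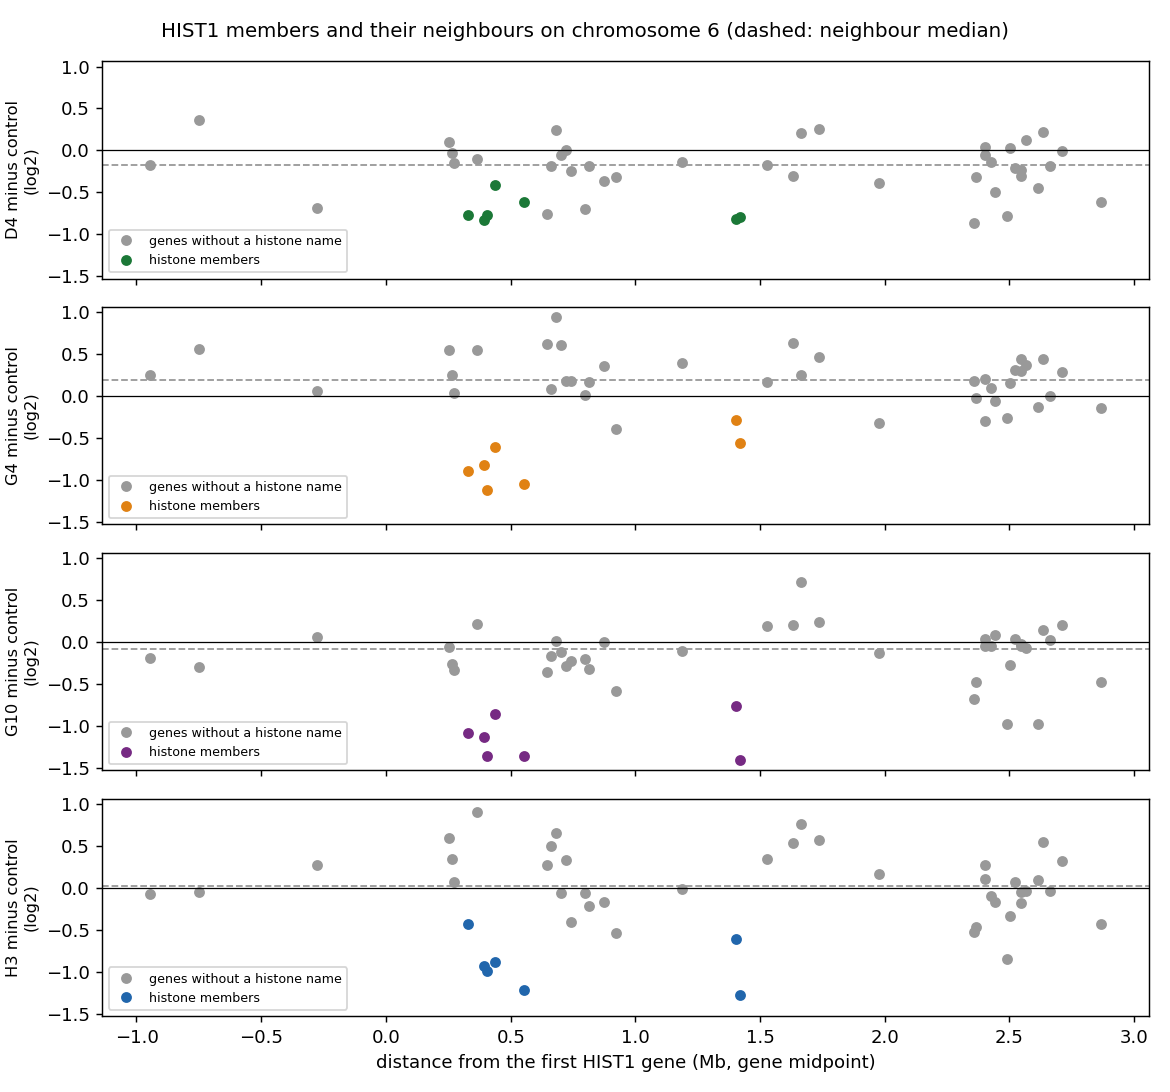
Difference from the control (log2, 1 panel per clone) of the 7 histone genes on chromosome 6 (coloured) and of 40 neighbours without a histone name (grey), by distance from the first HIST1 gene in Mb. The dashed line is the neighbours' median, −0.17 in D4 and 0.20 in G4. The histone genes lie below it in every clone.

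The 8 genes varied together over the 10 libraries. Pearson's r between pairs of genes ran from 0.46 to 0.92 with a median of 0.82 over 28 pairs, as a description, since the pairs share the libraries and the step from control to clones. HIST1H2BC followed the mean of the 8 most closely (r = 0.98) and HIST1H2BJ least (0.75), with HIST1H1C at 0.83. Among 12754 genes of at least 5 CPM without a histone name, those most like that mean were MYO1D (r = 0.971), ANKRD12 (0.969), C22orf39 (0.965), BSDC1 (0.959), TIPARP (0.955), DCAF12 (0.952), NFE2L1 (0.949) and AC020915.2 (0.948). TIPARP, a mono-ADP-ribosyltransferase, stood at 121 CPM in the control, 75.9 in D4, 80.6 in G4, 48.9 in G10 and 62.6 in H3. NFE2L1, a transcription factor of proteasome genes, stood at 352 CPM in the control and 227 to 272 in the clones.

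Reads of near-identical histone genes limit how far a level belongs to a single gene. Coding sequences of the H2B genes among the 8 were 89.2% to 92.7% identical to each other. The closest cluster gene of equal coding length was HIST1H2BE for HIST1H2BK, at 94.0%, and HIST1H4E for HIST1H4H, at 89.1%. No exon of the 8 genes overlapped an annotated exon of another gene. How reads matching several genes were counted is not given in the sources used here, so each gene's own level is uncertain to that extent.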

How the data were processed

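RNA of 5 groups of 2 KYSE-410 libraries was measured. The deposited values are CPM, normalised by the authors to the gene-assigned reads of each library, per the file headers. The submitters' processing notes list STAR 2.5.3a, HTSeq and hg38; annotation release, strand setting and treatment of multi-mapping reads are not given in the sources used here. Of 58302 identifiers, 58039 matched GENCODE 29, used for positions and transcripts. Promoters came from RefSeq.

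The 17664 genes that reached 1 CPM in 2 or more libraries were fitted as log2(CPM + 1), so that differences of low genes are understated, with limma 3.58.1 (trend, robust, R 4.3.3), 5 group means, 5 residual degrees of freedom and no covariate. Benjamini-Hochberg adjustment covered all tested genes, with a threshold of 0.05. Low CPM values step in whole reads, so reads were estimated by undoing the scaling (9653837 to 14253437 per library). Exact 95% Poisson intervals and the floor of 3 reads cover counting error only. edgeR was not used because the deposited values are not counts. The fit and the read estimate were tested on simulated data. Python 3.11.15, pandas 2.3.3, numpy 2.4.6, scipy 1.17.1 and matplotlib 3.10.9 were used.

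The members, lists and tests were chosen with earlier results of these data known. Named genes were the 8 members, the other tested cluster histones, up to 3 largest rises and 3 largest falls among the called genes of each list, 9 histone supply genes whatever their change (SLBP, NPAT, CASP8AP2, H2AFX, H2AFZ, H3F3A, H3F3B, H1F0, CENPA), the 8 most similar genes and INPPL1. Alternatives were another scaling, pseudocount and filter, limma-voom, a replicate block, leaving out each library and subtracting the neighbours' median.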

Additional observations from a re-analysis of the deposited data

Results flagged for a closer look

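Differences between clones that passed limma's test of the difference, in genes that also passed the F test, are listed here on the log2(CPM + 1) scale. HIST1H2BK was higher in G4 than in G10 by 0.85 (adjusted p = 0.000647) and than in H3 by 0.71 (0.00205), and higher in D4 than in G10 by 0.61 (0.0096) and than in H3 by 0.47 (0.0299). HIST2H2BE was higher in D4 than in G10 by 0.78 (adjusted p = 0.0158) and than in H3 by 0.70 (0.0225). HIST1H4H was higher in D4 than in G10 by 0.76 (adjusted p = 0.00736) and than in H3 by 0.60 (0.0213). HIST1H1C went the other way with respect to H3, with G4 minus H3 at −0.47 (adjusted p = 0.016) and G10 minus H3 at −0.66 (0.00203).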

How the results depend on the processing

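None of 655 recomputed differences of the 8 genes from the control changed sign (range −2.15 to −0.03), and 554 moved by less than 1 SD. Many of them could not move. A filter, the replicate block or the loss of another clone's library leaves a clone's own difference from the control as it was. The genes were also chosen by this contrast, so nothing is read from these counts. With a mean of at least 5 CPM required, 3 of the 8 genes were tested, of which 2 differed among the clones, 0 between D4 and G4, 2 between D4 and G10 and 1 between D4 and H3. The D4 and G4 count was 0 under limma-voom and with no filter. With no filter 10 of 59 other cluster histones were called in place of 4. With a mean of at least 5 CPM none of them was left to test. Within 1 Mb of HIST2H2BE 10 of 33 neighbours were called. With 1 library left out, the F test called 2 to 5 of the 8 genes. The pairs gave 0 to 1 (D4 and G4), 1 to 4 (D4 and G10), 0 to 3 (D4 and H3) and 1 to 2 for each of the other pairs. The lists gave 2 to 5 replication-independent histones, 5 to 11 genes of histone mRNA making and decay, 9 to 16 chaperones, 7 to 16 S-phase genes, 2 to 5 other cluster histones, 3 to 10 HIST1 neighbours and 6 to 24 HIST2 neighbours. Leaving out a library or raising the filter leaves fewer samples or genes, and otherwise the cause was not tested. With the replicate block 4 of the 8 genes differed among the clones, as without it, 6 other cluster histones were called in place of 4, 16 chaperones in place of 14 and 25 HIST2 neighbours in place of 22. Libraries of 1 number deviated together in control, D4, G4 and G10 (r = 0.363 to 0.595) and opposite to H3 (−0.346 to −0.184). Library number thus went with a shared deviation in 4 of the 5 groups, and as H3 goes against it and no label gives a pairing, the fit without the block was kept. edgeR on estimated reads was not run. Few reads per gene (5 to 196) limit every value.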

Other observations

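H2AFX, the H2A variant phosphorylated at DNA breaks, differed between the 2 libraries of G10, at 35.8 and 74.2 CPM, while its other libraries lay between 23.6 and 44.5 CPM. The cause was not tested.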
